A study of Mus musculus with 16 samples.

Results

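The tibialis anterior of formoterol-treated mice taken 4 h after the injection was compared with that of formoterol-treated mice taken 1 h after it, to ask how the transcript response to the drug moved over the 3 h between. The comparison used 8 of the 16 arrays in the series, chosen by their titles, with 4 mice at each time. All mice were wild type C57BL/10 ScSn males of 6 to 7 weeks. Formoterol 4 h and formoterol 1 h mice each had a single intraperitoneal dose of 100 μg/kg, and the saline 4 h and saline 1 h mice, again 4 at each time, had vehicle alone. The drug was given systemically, and each sample was a whole muscle, so fibres, vessels, blood and connective tissue were read together. In such bulk RNA, fewer cells of a type and less RNA per cell cannot be told apart.

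Formoterol is a long-acting agonist of the β2-adrenoceptor, which couples through Gs to adenylyl cyclase. The resulting cAMP frees the catalytic subunit of protein kinase A, which phosphorylates CREB and its relatives at cAMP response elements. The first wave consists of immediate early genes, mostly transcription factors with short-lived mRNAs, and a second wave holds feedback inhibitors such as ICER (from Crem) and the cAMP phosphodiesterases, together with metabolic regulators such as PGC-1α. In skeletal muscle, β2-agonists are known for hypertrophy and for altered glycogen, lipid and oxidative metabolism.

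Levels are given as the deposited ratio, each probe's intensity divided by the median of its array, so that a ratio of 1 is a probe of middling brightness, and changes as log2 of formoterol 4 h over formoterol 1 h with the standard error (SE). Of 46120 probes, the 7596 scored 1 for detection by at least 4 of the 16 arrays were tested. Across the 16 arrays 5584 to 8528 probes were detected, and the median of the tested probes was 2.33 to 3.74 times that of undetected ones. Of 10 skeletal muscle fibre markers 2 were tested, the fast fibre genes Actn3 and Myh1, whose summed ratio was 42.2 to 49.9 at 4 h and 39.5 to 50.8 at 1 h after formoterol, while none of 5 slow fibre markers and none of 4 nerve sheath markers was among the tested probes. Genes could be named for part of the array only: 2591 tested probes through a gene number or accession in the probe ID, and 59 more through the values printed for a gene in the study's tables. The second kind was selected by the study on these same arrays for a response to the drug, is called "table-named" here, and was kept out of the counts over gene lists. Besides genes marked so below, it includes Mt2, Ppargc1a, Ppard, Vasp, Gadd45a, Flcn, Ly6a, Lgals3, S100a8 and Adamts9. The brighter probes of Synpo2l, Ifi30 and 6430548M08Rik belong to it too. Calls of table-named probes are not independent of that selection.

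Slide was partly confounded with time. The arrays were spread over 3 slides, and of the formoterol 4 h arrays 3 were on slide 1, which held no 1 h array, and 1 was on slide 2; of the formoterol 1 h arrays 2 were on slide 2 and 2 on slide 3. The saline arrays had the same layout, so any additive slide effect was shared by both time changes. Values with slide as a block, on slide 2 alone and without slide 2 stand beside the results they bear on or in the paragraph on slides near the end.

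By limma with Benjamini-Hochberg adjustment, 253 probes were higher at 4 h than at 1 h after formoterol (3.33% of those tested) and 161 were lower (2.12%), or 414 in all (5.45%). Their median log2 change was 0.52 among the higher and -0.44 among the lower, against -0.004 over all tested probes, and 20 higher and 13 lower probes changed at least 2-fold. The 4 mice at each time did not overlap for 230 of the 253 and for 142 of the 161, where 6.99% and 5.77% of all tested probes were without overlap in those directions. After saline the same 3 h gave 7 calls (0.0922% of probes), 2 higher (0.0263%) and 5 lower (0.0658%). That number was unstable, at 84 when replicate 4 at 4 h after saline was omitted, 0 when replicate 3 at that time was, and 227 without slide 2. At an unadjusted p under 0.05 there were 1219 probes after formoterol and 1050 after saline. The time change after formoterol differed from that after saline for 256 probes (3.37%), upward for 167 (2.2%) and downward for 89 (1.17%), and for 140 of the 253 higher and 64 of the 161 lower. With slide as a fixed block, 114 of the 253 and 43 of the 161 were still called, and all 414 kept their sign, as they did on slide 2 alone and without slide 2. These settings reuse the arrays that gave the 414 calls, so the kept signs are no separate evidence. Without slide 2, all 4 h arrays were on slide 1 and all 1 h arrays on slide 3, so that setting cannot tell time from slide. The number of lower probes was 102 when replicate 2 at 1 h after formoterol was omitted and 103 when replicate 3 at 4 h was.

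**Figure D1:**
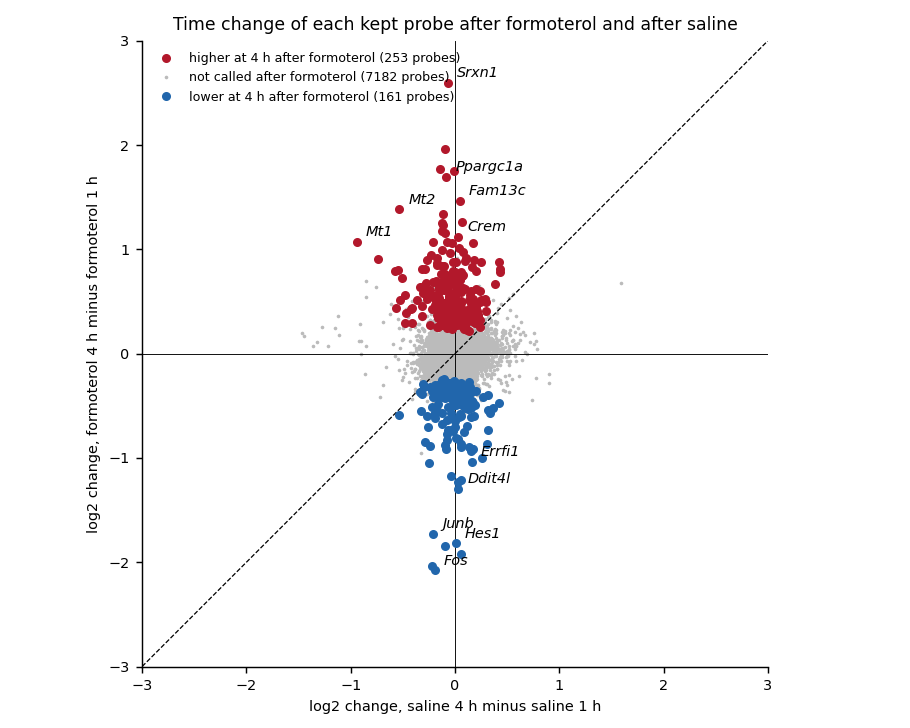
Each point is 1 of 7596 tested probes; the vertical axis is the log2 change of formoterol 4 h over formoterol 1 h and the horizontal axis that of saline 4 h over saline 1 h, with the diagonal marking equal change. The 253 higher probes (red) and the 161 lower probes (blue) include Srxn1 at 2.60 and Fos at -2.08 as the named extremes, and the time change differed from that after saline for 140 of the 253 and 64 of the 161.

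Immediate early genes were among those that fell. Of 42 genes on the list of early response genes, 10 were measured by probes named from the ID; 6 of these fell, where 2.12% of all tested probes did, none rose and 4 did not pass the test, with a median log2 change of -0.745 after formoterol and 0.03 after saline. Among 7 table-named members, Fos, Hes1 and Csrnp1 fell, Plk3 and Atf3 rose, and Id1 and Maff were not called.

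Fos, the leucine zipper partner of Jun proteins in AP-1, had ratios of 0.658, 0.809, 0.772 and 1.67 in formoterol 4 h mice against 3.10, 3.69, 4.59 and 4.11 in formoterol 1 h mice. The groups did not overlap, and the highest value at 4 h was that of replicate 4, the array on slide 2. The log2 change was -2.08 ± 0.27 (adjusted p = 8.24e-05), and it was -1.28 with slide as a block (adjusted p = 0.0186) and -1.02 on slide 2 alone. Saline mice averaged 0.667 ± 0.182 at 4 h and 0.780 ± 0.292 at 1 h (SD, n = 4 each), so the excess over saline at 4 h was 10.0% ± 8.13 (SE) of that at 1 h. Junb, which codes for a Jun family member of AP-1, read 0.678, 0.860, 0.788 and 0.859 at 4 h against 3.52, 2.44, 3.17 and 1.73 at 1 h after formoterol, with no overlap. Its log2 change was -1.73 ± 0.18 (adjusted p = 7.28e-06). It was detected on all 8 formoterol arrays and on none of the 8 saline arrays. With that undetected saline signal as the baseline, 16% ± 4.01 of its 1 h excess remained at 4 h, a share that rests on levels below detection. For Fosl2, the Fra-2 component of AP-1, the ratios were 0.825, 1.11, 0.849 and 0.882 at 4 h against 1.63, 1.74, 1.85 and 1.65 at 1 h, again without overlap. It fell by 0.92 ± 0.09 on the log2 scale (adjusted p = 7.27e-06), and 32.6% ± 6.42 of its excess was left. That share too has a largely undetected baseline, with detection on 1 saline array at 4 h and none at 1 h.

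Hes1 at 4 h stood among the saline mice. This basic helix-loop-helix repressor, a target of Notch and an oscillator that represses its own promoter, had ratios of 0.653, 0.836, 0.769 and 0.777 at 4 h against 2.37, 3.25, 3.11 and 2.09 at 1 h after formoterol, and means of 0.748 ± 0.078 at 4 h and 0.746 ± 0.097 at 1 h after saline. Both formoterol groups were wholly apart (log2 change -1.82 ± 0.13, adjusted p = 1.53e-07), and 0.562% ± 2.79 of the 1 h excess remained. Errfi1, a feedback inhibitor of the EGF receptor family, read 1.39, 1.45, 2.08 and 2.03 at 4 h against 3.48, 3.13, 4.06 and 3.42 at 1 h (log2 change -1.04 ± 0.13, adjusted p = 6.84e-05), with 8.59% ± 9.96 of the excess left. The Krüppel-like factor Klf2, a regulator of endothelial quiescence, fell to 1.12, 1.35, 1.17 and 1.29 at 4 h, against 2.00, 2.14, 2.23 and 2.66 at 1 h (log2 change -0.87 ± 0.12, adjusted p = 0.000199), and 6.13% ± 8.0 of its excess was left.

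Klf4, Nr4a2 and Csrnp1 also fell. Klf4, a Krüppel-like factor known from pluripotency and vascular smooth muscle, had ratios of 1.48, 1.75, 1.34 and 1.39 at 4 h against 3.24, 2.44, 3.04 and 1.95 at 1 h after formoterol, and averaged 0.683 ± 0.154 at 4 h and 0.659 ± 0.021 at 1 h after saline. It fell by 0.82 ± 0.15 (log2, adjusted p = 0.00201) and was still at 40.3% ± 8.36 of its 1 h excess, and without slide 2 the change was -0.68 (adjusted p = 0.11). Its second probe, at lower ratios, changed by -0.41 (adjusted p = 0.0428), a call that ended without any 1 of 10 of the 16 arrays (highest adjusted p = 0.144, without formoterol 4 h replicate 1). Nr4a2, the orphan nuclear receptor Nurr1 and a classical CREB target, was detected on all 8 formoterol arrays and on none of the 8 saline arrays. Its ratios were 0.710, 1.07, 0.872 and 0.779 at 4 h against 1.66, 1.46, 1.28 and 1.07 at 1 h, so that the groups met at 1.07. Over a baseline of undetected saline signal, 48.6% ± 11.9 of the excess remained. The log2 change of -0.67 ± 0.16 (adjusted p = 0.0188) lost its call with slide as a block (adjusted p = 0.189) and when either replicate 1 or 4 at 4 h or replicate 1 or 2 at 1 h after formoterol was omitted (highest adjusted p = 0.0728), and the second Nr4a2 probe gave -0.41 (adjusted p = 0.124). Csrnp1, a nuclear protein first described as a target of axin, fell by 0.87 ± 0.17 on the log2 scale without overlap (adjusted p = 0.00419, and 0.21 with slide as a block). Of its 1 h excess over undetected saline signal, 27.3% ± 11.8 was left, at a 4 h level mostly below detection. Detected on 1 array at 4 h and on no saline array, Csrnp1 was tested only because of its level at 1 h. Its call is no separate evidence of a fall.

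Not every early gene fell. Plk3, a stress-responsive polo-like kinase, stood at 1.59, 1.84, 1.54 and 1.18 at 4 h against 0.902, 1.10, 1.28 and 0.735 at 1 h, with an overlap of 1 mouse and a log2 change of 0.63 ± 0.16 (adjusted p = 0.0209, and 0.29 with slide as a block); leaving out 1 of 5 arrays ended that call (highest adjusted p = 0.0836, without formoterol 4 h replicate 2). Atf3, a stress-induced member of the ATF/CREB family, was detected on all 4 arrays at 4 h and on none at 1 h after formoterol, where it has only a bound, and was at least 1.42-fold higher at 4 h. It was undetected on every saline array too, so it entered the test only through the group in which it was high, and its call (adjusted p = 0.0068, and 0.0518 with slide as a block) is no separate evidence of a rise. Maff, a small Maf protein, had ratios of 1.02 to 1.49 at 4 h and 0.741 to 1.61 at 1 h (log2 change 0.05, adjusted p = 0.956), and was detected on every formoterol array and on no saline array. Id1 read 1.04 to 1.29 at 4 h and 1.01 to 1.43 at 1 h (log2 change -0.04, adjusted p = 0.939), above the saline means of 0.606 at 4 h and 0.667 at 1 h. Id3, Klf6, Rhob and Zfp36l1 did not pass the test either, with log2 changes of 0.07, 0.16, -0.21 and -0.47.

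**Figure D2:**
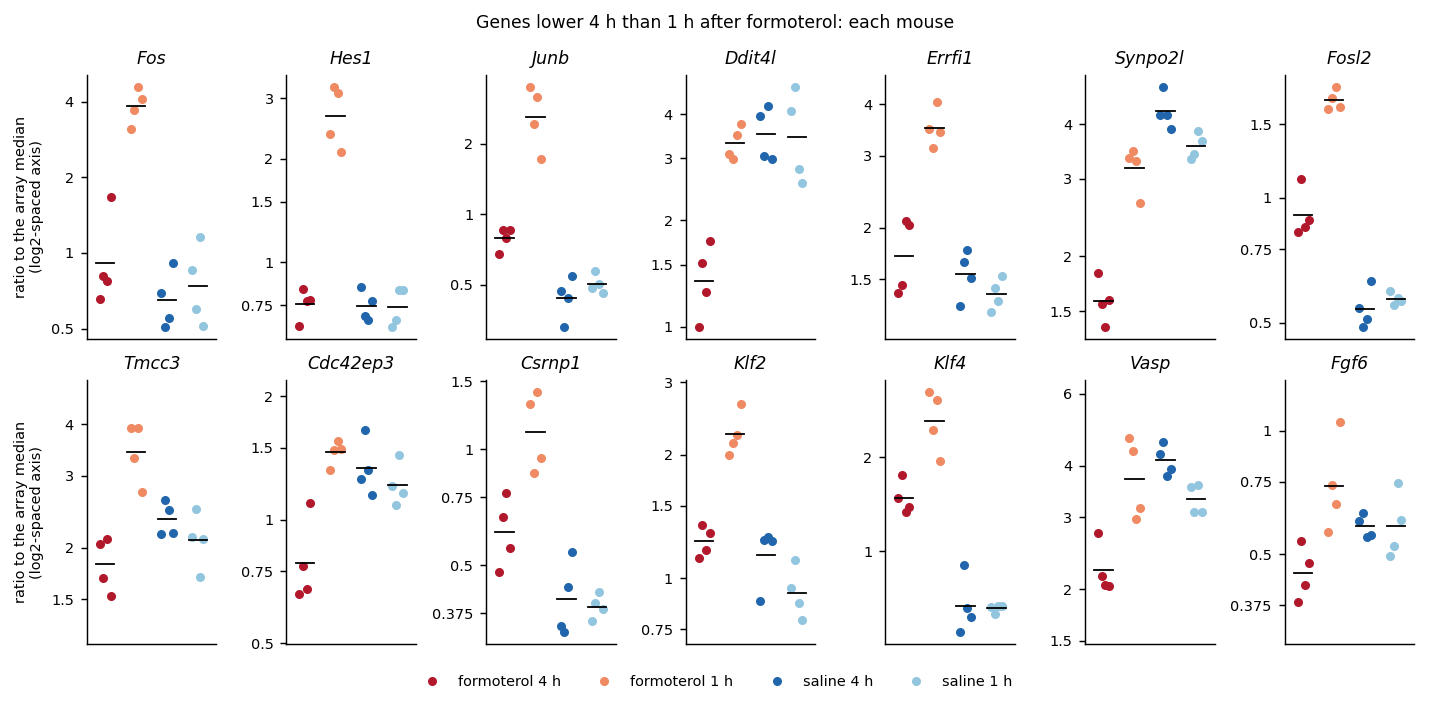
Ratio to the array median (log2-spaced vertical axis) of each mouse for the 14 named genes with the largest falls, with a horizontal line at the geometric mean of the 4 mice; groups run formoterol 4 h, formoterol 1 h, saline 4 h and saline 1 h. Hes1 at 4 h after formoterol (0.653 to 0.836) lay among the saline mice, Klf4 (1.34 to 1.75) lay above them, and Ddit4l (0.998 to 1.75) and Synpo2l (1.38 to 1.83) lay below them.

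Sequences of 5 promoters are shown because CREB binds the half-site of the cAMP response element, and these genes fell (Fos, Junb and Nr4a2) or rose (Ppargc1a and Nfil3) after the same stimulus. Each is the stretch of 300 bases that spans the gene start in RefSeq on GRCm38.p6, written 5′ to 3′ on the gene's strand, with TGACG or its reverse complement CGTCA in capitals. They come from chr12:85473640-85473939 (plus strand, Fos), chr8:84978699-84978998 (minus, Junb), chr2:57123954-57124253 (minus, Nr4a2), chr5:51567676-51567975 (minus, Ppargc1a) and chr13:52980990-52981289 (minus, Nfil3).
Fos: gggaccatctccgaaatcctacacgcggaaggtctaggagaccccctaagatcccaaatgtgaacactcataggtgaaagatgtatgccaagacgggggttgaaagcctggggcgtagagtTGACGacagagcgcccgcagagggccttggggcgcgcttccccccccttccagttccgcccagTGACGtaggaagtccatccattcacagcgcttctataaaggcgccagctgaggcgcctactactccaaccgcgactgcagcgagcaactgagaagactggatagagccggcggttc
Junb: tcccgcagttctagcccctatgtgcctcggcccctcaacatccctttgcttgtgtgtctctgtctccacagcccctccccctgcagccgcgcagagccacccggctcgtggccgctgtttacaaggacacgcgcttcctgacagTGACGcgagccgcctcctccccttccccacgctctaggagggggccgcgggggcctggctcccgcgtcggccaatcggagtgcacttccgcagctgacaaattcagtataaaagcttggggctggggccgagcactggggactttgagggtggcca
Nr4a2: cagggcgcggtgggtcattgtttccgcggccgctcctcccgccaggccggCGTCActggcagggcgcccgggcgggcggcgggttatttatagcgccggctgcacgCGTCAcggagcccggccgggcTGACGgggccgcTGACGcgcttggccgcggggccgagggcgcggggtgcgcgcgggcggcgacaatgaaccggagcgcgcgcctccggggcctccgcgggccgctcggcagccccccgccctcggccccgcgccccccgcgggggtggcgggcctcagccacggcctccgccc
Ppargc1a: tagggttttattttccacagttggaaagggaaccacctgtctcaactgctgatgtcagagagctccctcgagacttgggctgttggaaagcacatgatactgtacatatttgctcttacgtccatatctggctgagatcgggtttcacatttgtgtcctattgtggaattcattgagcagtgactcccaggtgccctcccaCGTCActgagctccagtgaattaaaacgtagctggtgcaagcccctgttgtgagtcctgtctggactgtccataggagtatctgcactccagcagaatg
Nfil3: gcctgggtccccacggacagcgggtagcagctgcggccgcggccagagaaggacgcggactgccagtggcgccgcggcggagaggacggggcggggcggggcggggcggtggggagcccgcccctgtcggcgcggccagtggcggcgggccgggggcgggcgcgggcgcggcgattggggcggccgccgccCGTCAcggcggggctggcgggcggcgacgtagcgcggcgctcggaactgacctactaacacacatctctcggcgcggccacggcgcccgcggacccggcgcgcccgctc
Relative to the gene start, matches began at -129 and -66 in Fos, at -106 in Junb, at -200, -144, -123 and -111 in Nr4a2, at -49 in Ppargc1a and at -59 in Nfil3. Of the 8 early response genes called lower whose promoter was at hand, 7 held the half-site, as did 7 of 13 among the 14 largest falls and 10 of 11 among the 14 largest rises. By promoter, the half-site was found in 20.8% of all 32851 RefSeq promoters and in 33.2% of the 2562 promoters of genes with a tested probe named from the ID. By gene, where any promoter counts, it was found in 38.9% of the 1941 such genes. Among genes named from the ID it was found in 34.5% of 58 called higher and 41.5% of 41 called lower, shares on either side of that 38.9%. The palindrome TGACGTCA, which contains the half-site, was in the promoters of Errfi1 and Flcn among the 28 genes and in 78 (4.02%) of the 1941 genes with a tested probe named from the ID. By promoter, it was in 3.2% of the 2562 promoters of those 1941 genes and in 1.79% of all promoters. Letters that match a motif are a description of the sequence and not evidence of binding.

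A second kind of fall ended below the saline level. Ddit4l, a stress-regulated inhibitor of mTOR signalling that is abundant in muscle, had ratios of 0.998, 1.52, 1.25 and 1.75 at 4 h against 3.09, 2.98, 3.50 and 3.74 at 1 h after formoterol, while saline mice averaged 3.55 ± 0.63 at 4 h and 3.55 ± 1.06 at 1 h. The log2 change was -1.3 ± 0.19 (adjusted p = 0.000249), and on slide 2 alone it was -0.79. Synpo2l, an actin-binding protein of the Z-disc, read 1.83, 1.56, 1.38 and 1.59 at 4 h against 3.34, 3.48, 3.29 and 2.65 at 1 h, with saline means of 4.29 ± 0.42 and 3.57 ± 0.23 at 4 h and 1 h. It fell by 1.00 ± 0.10 on the log2 scale (adjusted p = 5.55e-06); its other probe was undetected on all 4 arrays at 4 h and was at least 1.31-fold lower there (adjusted p = 0.000175). At 1 h after formoterol the difference from saline was -0.226 ± 0.559 for Ddit4l and -0.381 ± 0.218 for Synpo2l (ratio ± SE), and no mouse at 4 h reached the lowest mouse at 1 h.

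Vasp, Cdc42ep3 and Zyx fell as well, to different levels relative to saline. Vasp, which speeds the growth of actin filaments, read 2.75, 2.15, 2.05 and 2.04 at 4 h against 4.67, 4.35, 2.97 and 3.15 at 1 h (log2 change -0.73 ± 0.13, adjusted p = 0.0019), with saline at 4.14 ± 0.35 at 4 h and 3.33 ± 0.28 at 1 h. The change was -1.14 on slide 2 alone and -0.41 without slide 2 (adjusted p = 0.133). Cdc42ep3, an effector of the small GTPase Cdc42, read 0.658, 0.773, 0.677 and 1.10 at 4 h against 1.32, 1.48, 1.56 and 1.49 at 1 h (log2 change -0.90 ± 0.14, adjusted p = 0.000516). This call was lost with slide as a block (adjusted p = 0.0784) and the change was -0.35 on slide 2 alone, where the only 4 h mouse is the one at 1.10. Zyx, the focal adhesion protein zyxin, chosen after its values were seen, fell by 0.57 ± 0.10 (log2, adjusted p = 0.00133), with 4 h values of 1.70 to 2.02 around the saline mean of 1.95, and its adjusted p was 0.0518 with slide as a block.

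The type I bone morphogenetic protein receptors Acvr1 and Bmpr1a, named after their values were seen, had ratios of 0.655 to 0.715 and 0.833 to 0.965 at 4 h against 0.982 to 1.07 and 1.26 to 1.41 at 1 h after formoterol. Acvr1 fell by 0.59 ± 0.07 (log2, adjusted p = 4.71e-05) and Bmpr1a by 0.61 ± 0.10 (adjusted p = 0.000562, and 0.0768 with slide as a block), with saline means of 0.966 and 0.926 for Acvr1 and 1.29 and 1.25 for Bmpr1a at 4 h and 1 h. The semaphorin and VEGF co-receptor Nrp1, also named after its values were seen, fell by 0.54 ± 0.11 and 0.47 ± 0.10 on 2 probes (adjusted p = 0.00444 and 0.00932). Pdgfa, a chain of platelet-derived growth factor, stood at 0.723 to 0.830 at 4 h and 1.03 to 1.14 at 1 h (log2 change -0.50 ± 0.11, adjusted p = 0.00765, and 0.275 with slide as a block). Fgf6, a fibroblast growth factor restricted largely to muscle, was undetected on all 4 arrays at 4 h and was at least 1.15-fold lower than at 1 h (adjusted p = 0.0108, and 0.238 with slide as a block). Tmcc3, a membrane protein with coiled coils, read 2.04, 1.69, 2.1 and 1.53 at 4 h against 3.91, 3.31, 3.91 and 2.73 at 1 h (log2 change -0.91 ± 0.13, adjusted p = 0.00024), and all 4 mice at 4 h lay below the saline mean of 2.36 at the same time.

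The largest rise was in a redox gene. Srxn1, sulfiredoxin, restores peroxiredoxins that hydrogen peroxide has over-oxidised. Its brightest probe had ratios of 6.37, 7.88, 7.42 and 8.22 at 4 h against 1.40, 1.11, 1.13 and 1.29 at 1 h after formoterol, and means of 0.712 ± 0.143 at 4 h and 0.754 ± 0.215 at 1 h after saline. The log2 change was 2.60 ± 0.16, a 6.05-fold difference (adjusted p = 4.27e-08), and 2 further probes gave 1.96 and 1.77 (adjusted p = 1.56e-07 each). The probe at 1.96 was tested only because of its level at 4 h after formoterol, so its call is no separate evidence of a rise. Every mouse at 4 h was far above every mouse at 1 h.

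The metallothioneins, which bind zinc and other metals and respond to glucocorticoids as well as to metals, were already high at 1 h and higher still at 4 h. Mt1 read 55.4, 44, 60.8 and 56.2 at 4 h against 33.5, 22.4, 31.8 and 17.8 at 1 h after formoterol, with saline means of 4.47 ± 0.78 at 4 h and 8.86 ± 3.32 at 1 h. The formoterol groups did not overlap (log2 change 1.07 ± 0.22, adjusted p = 0.00477), and the saline change over the same time was -0.94 (adjusted p = 0.0962). Mt2 read 6.49, 3.88, 5.96 and 4.36 at 4 h against 2.99, 1.46, 2.58 and 1.25 at 1 h (log2 change 1.38 ± 0.25, adjusted p = 0.00201, and 0.0523 with slide as a block). At 1 h replicates 1 and 3 were above replicates 2 and 4 for both genes. On the list of oxidative stress and metal response genes 3 of 10 measured members rose, where 3.33% of all tested probes did, namely Srxn1, Mt1 and Osgin1, and none fell, with a median log2 change of 0.08 against -0.004 over all tested probes. Osgin1, an oxidative stress-induced growth inhibitor, was undetected on all arrays at 1 h and was at least 1.25-fold higher at 4 h (adjusted p = 0.00452). Only 3 saline arrays detected it besides, so it reached the 4 arrays needed for testing through the group in which it was high. Its place among the 3 members that rose is no separate evidence.

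Among members of the cAMP pathway that act as feedback, Crem and Pde4d were higher at 4 h. Crem, a table-named gene whose ICER isoforms repress CREB targets, was detected on all 4 arrays at 4 h and 2 of 4 at 1 h after formoterol. No saline array detected it. Its ratios were 1.31, 1.74, 1.59 and 1.65 at 4 h against 0.826, 0.668, 0.720 and 0.679 at 1 h (log2 change 1.12 ± 0.10, adjusted p = 9.25e-07). Crem reached the 4 arrays needed for testing only through the 4 h group in which it was high. Its call is therefore no separate evidence of a rise. Pde4d, a phosphodiesterase that breaks down cAMP, stood at 2.25, 2.35, 2.51 and 2.46 at 4 h against 1.55, 1.76, 1.79 and 1.61 at 1 h after formoterol, and at 0.638 ± 0.093 and 0.817 ± 0.051 at 4 h and 1 h after saline. It rose by 0.51 ± 0.09 on the log2 scale (adjusted p = 0.00177), and its excess over saline at 4 h was 204% ± 17.1 of that at 1 h. Of 7 members of the cAMP list named from the ID, Pde4d was the 1 called, as a rise, where 3.33% of all tested probes rose. The other 6, Cebpb, Gnas, Prkar2a, Akap1, Adcy6 and Cited2, did not pass the test, with a list median of 0.003. Cebpb, a leucine zipper factor, read 10.8, 9.50, 13.3 and 9.79 at 4 h against 9.49, 9.16, 9.02 and 5.95 at 1 h after formoterol (log2 change 0.38, adjusted p = 0.264), and averaged 3.18 and 4.95 at 4 h and 1 h after saline.

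Ppargc1a, which codes for PGC-1α, the coactivator of mitochondrial biogenesis, had ratios of 5.24, 5.86, 7.82 and 4.09 at 4 h against 1.84, 1.57, 1.04 and 2.96 at 1 h after formoterol, with saline means of 1.07 ± 0.09 at 4 h and 1.13 ± 0.12 at 1 h. The spread at 1 h was wide, with replicate 3 at the saline level and replicate 4 at 2.96, yet no mouse reached the lowest at 4 h. The log2 change was 1.70 ± 0.23, or 3.24-fold (adjusted p = 0.000102). Its relative Ppargc1b, for PGC-1β, went the other way, at 0.648, 0.756, 0.675 and 0.726 at 4 h against 1.06, 1.15, 1.03 and 0.997 at 1 h (log2 change -0.59 ± 0.11, adjusted p = 0.00164, and 0.135 with slide as a block). Ppard, the fatty acid-sensing receptor PPARδ, rose by 0.67 ± 0.09 (log2, adjusted p = 8.16e-05), with 2.30 to 3.05 at 4 h and 1.60 to 1.80 at 1 h, and changed by 0.42 on slide 2 alone. Thra, the thyroid hormone receptor α, changed by -0.29 (adjusted p = 0.0494), a call that ended without any 1 of 13 of the 16 arrays (highest adjusted p = 0.173, without formoterol 4 h replicate 1).

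**Figure D3:**
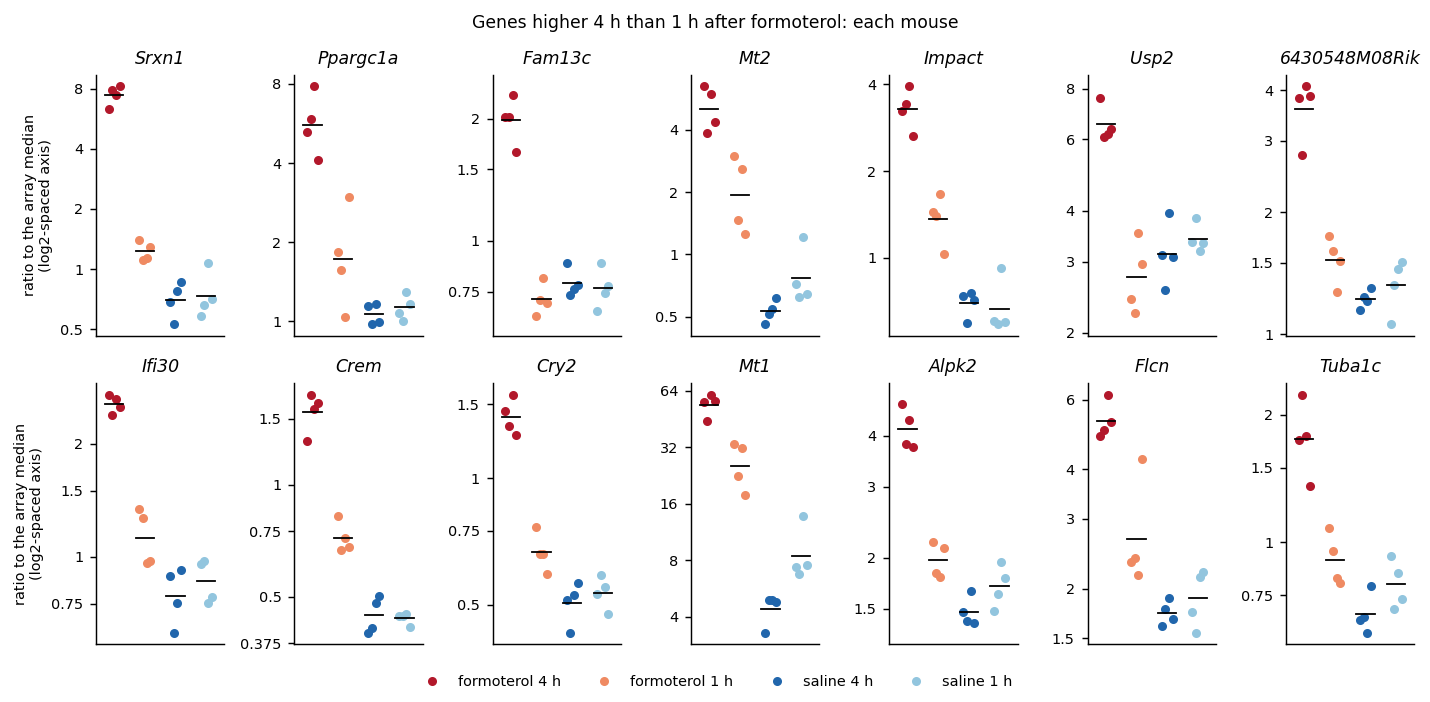
Ratio to the array median (log2-spaced vertical axis) of each mouse for the 14 named genes with the largest rises, drawn as for the falls, with groups running formoterol 4 h, formoterol 1 h, saline 4 h and saline 1 h. Srxn1 ran from 6.37 to 8.22 at 4 h, Fam13c at 1 h (0.654 to 0.812) lay among the saline mice, and Mt1 at 1 h (17.8 to 33.5) lay well above them.

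None of 7 clock genes named from the ID passed the test (median 0.06), whereas 4 table-named ones, chosen by the study for a drug response at 1 of these times, all rose. Cry2, a repressor of the clock, stood at 1.45, 1.33, 1.58 and 1.27 at 4 h against 0.765, 0.660, 0.661 and 0.593 at 1 h after formoterol and was detected on none of the saline arrays (log2 change 1.07 ± 0.10, adjusted p = 2.55e-06). Detected on 1 array at 1 h, Cry2 was tested only because of its level at 4 h, and its call is no separate evidence. Usp2, a deubiquitinating enzyme with a daily rhythm, read 7.61, 6.08, 6.18 and 6.36 at 4 h against 2.43, 2.24, 3.53 and 2.96 at 1 h, with saline at 3.17 and 3.43 (log2 change 1.25 ± 0.14, adjusted p = 1.38e-05). Both were without overlap. Nfil3 and Dbp bind the same D-box elements, Nfil3 as a repressor and Dbp as an activator. Nfil3 stood at 5.75, 8.03, 7.43 and 9.01 at 4 h against 4.66, 4.14, 4.01 and 4.50 at 1 h after formoterol, and at 1.45 ± 0.41 and 2.11 ± 0.25 at 4 h and 1 h after saline (log2 change 0.79 ± 0.16, adjusted p = 0.00588). Dbp stood at 1.44, 1.15, 1.93 and 1.97 at 4 h against 0.674, 0.891, 1.3 and 0.928 at 1 h after formoterol, while saline mice averaged 5.75 ± 0.84 at 4 h and 4.24 ± 0.09 at 1 h, so that it rose by 0.78 ± 0.18 (log2, adjusted p = 0.0104) while every formoterol mouse stayed below the saline means. After saline Dbp changed by 0.43, and the difference of its time changes did not pass limma's test (adjusted p = 0.605). On slide 2 alone the Dbp change was 1.34. Of 2 probes for Noct, a rhythmic protein of the CCR4 family, the table-named one changed by 0.44 (adjusted p = 0.0381), a call that ended without any 1 of 7 arrays (highest adjusted p = 0.119, without formoterol 4 h replicate 3), and the other by 0.50 (adjusted p = 0.0527). Rora, Clock, Nr1d2, Csnk1d and Csnk1e lay between -0.30 and 0.29 on the log2 scale.

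Genes of growth, arrest and protein turnover rose in part. Stat3, the transcription factor downstream of interleukin-6 family cytokines, read 3.55, 3.04, 2.60 and 2.53 at 4 h against 1.86, 1.64, 1.61 and 1.59 at 1 h after formoterol, with saline means of 1.65 at 4 h and 1.67 at 1 h. It rose by 0.80 ± 0.09 (log2, adjusted p = 2.57e-05) and by 0.63 on its second probe. Foxo1, a forkhead factor that drives atrophy genes and is held back by insulin, was detected on all 4 arrays at 4 h and 1 at 1 h after formoterol (log2 change 0.73 ± 0.14, adjusted p = 0.00362). No saline array detected Foxo1, so it was tested only because of its level at 4 h after formoterol. Its call is no separate evidence of a rise. Of 12 growth and atrophy genes named from the ID 4 rose, Stat3, Foxo1, Fbxo34 and Eif4ebp1, and 1 fell, Bmpr1a, against 3.33% and 2.12% of all tested probes, with a median of 0.06. The count of rises includes Foxo1 in spite of how it came to be tested. Among 6 table-named ones Fgf1 and Tgif1 rose and Ddit4l fell. Fbxo34, an F-box protein, stood at 1.78 to 2.36 at 4 h and 1.13 to 1.25 at 1 h (log2 change 0.76 ± 0.09, adjusted p = 4.42e-05). Gadd45a, a stress-induced arrest protein, stood at 2.62 to 3.69 at 4 h and 1.36 to 2.08 at 1 h (log2 change 0.87 ± 0.18, adjusted p = 0.0057, and 0.0818 with slide as a block). Flcn, the lysosomal nutrient sensor folliculin, read 4.87, 5.04, 6.17 and 5.26 at 4 h against 2.33, 2.39, 2.17 and 4.25 at 1 h, with replicate 4 at 1 h apart from the other 3 (log2 change 0.99 ± 0.17, adjusted p = 0.000917, and 0.063 without slide 2).

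In lipid metabolism, Gpat3, an acyltransferase of triglyceride synthesis, stood at 1.20, 1.43, 1.44 and 1.31 at 4 h against 0.809, 0.774, 0.734 and 0.659 at 1 h after formoterol and was detected on no saline array (log2 change 0.85 ± 0.10, adjusted p = 2.57e-05). With 3 detections at 1 h, Gpat3 reached the arrays needed for testing only through the 4 h group, and its call is no separate evidence. Plin4, a coat protein of lipid droplets, rose by 0.56 ± 0.14 (log2, adjusted p = 0.0212, and 0.0841 with slide as a block), a call that ended without any 1 of 5 arrays (highest adjusted p = 0.0936, without formoterol 4 h replicate 3). These were the only calls among 17 lipid genes named from the ID (median 0.03), where 3.33% of all tested probes rose, and Gpat3 adds no separate evidence to that count. The table-named Pmvk, phosphomevalonate kinase, was at least 1.32-fold higher at 4 h (adjusted p = 0.000562). Like Atf3, it was detected in no other group and was tested only because of its level at 4 h after formoterol. None of 17 glucose and glycogen genes named from the ID was called, with Aldoa at 0.18 and Gapdh at 0.05 on the log2 scale.

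Some inflammation-related genes rose. Ifi30, a thiol reductase of the lysosome, read 2.70, 2.38, 2.63 and 2.50 at 4 h against 1.34, 1.27, 0.962 and 0.973 at 1 h (log2 change 1.18 ± 0.13, adjusted p = 1.7e-05), and 0.76 on a probe named from the ID (adjusted p = 5.49e-05). That dimmer probe was tested only because of its level at 4 h after formoterol. Ly6a, the Sca-1 surface antigen of endothelial and progenitor cells, read 9.16, 9.09, 8.53 and 8.97 at 4 h against 5.13, 4.54, 3.89 and 5.53 at 1 h (log2 change 0.92 ± 0.14, adjusted p = 0.000254), with saline at 4.79 and 5.48. Of 8 inflammation genes named from the ID 2 rose, Stat3 and Ifi30, where 3.33% of all tested probes did, and none fell, with a median of 0.295. Ifi30 enters that count through its dimmer probe, which adds no separate evidence. Lgals3, galectin-3, changed by 0.80 (adjusted p = 0.0467), a call that ended without any 1 of 11 arrays (highest adjusted p = 0.171, without formoterol 1 h replicate 2). None of 3 measured leukocyte markers was called. Their summed ratio was 2.96 to 3.41 at 4 h and 2.30 to 3.30 at 1 h after formoterol, and 1.54 to 2.33 at 4 h and 2.17 to 4.21 at 1 h after saline, and S100a8 alone stood at 1.18 to 1.43 at 4 h and 0.591 to 1.08 at 1 h (log2 change 0.70, adjusted p = 0.16). The endothelial marker Pecam1 stood at 1.31 to 1.39 at 4 h and 1.01 to 1.28 at 1 h (log2 change 0.31, adjusted p = 0.0846). The part of these cells in the result was not tested.

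Of 6 vascular and hypoxia genes named from the ID, 1 rose and 1 fell, where 3.33% and 2.12% of all tested probes did. Egln3, an oxygen-sensing prolyl hydroxylase, stood at 2.36 to 3.81 at 4 h and 1.60 to 2.02 at 1 h (log2 change 0.65 ± 0.14, adjusted p = 0.00622). Pdgfa fell, a call lost with slide as a block (limma adjusted p = 0.275), and the other 4 were not called. Adamts9, a metalloproteinase of the extracellular space, had 1 mouse at 1 h, at 3.87, within the 4 h range, and changed by 0.83 (adjusted p = 0.0477), and by 0.08 on slide 2 alone, and that call ended without any 1 of 13 arrays (highest adjusted p = 0.16, without formoterol 1 h replicate 4).

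Several of the largest rises belonged to no list. Fam13c stood among the saline mice at 1 h and above them at 4 h, with 2.02, 2.02, 2.29 and 1.66 at 4 h against 0.654, 0.715, 0.812 and 0.701 at 1 h after formoterol and means of 0.790 and 0.767 at 4 h and 1 h after saline (log2 change 1.47 ± 0.10, adjusted p = 1.25e-07). Impact, which restrains the amino acid-sensing kinase Gcn2, had already risen in part, with 3.22, 3.42, 3.93 and 2.65 at 4 h against 1.44, 1.40, 1.67 and 1.03 at 1 h, and 0.699 and 0.679 after saline (log2 change 1.26 ± 0.16, adjusted p = 5.33e-05). Alpk2, an α-kinase of heart and muscle, rose by 1.07 ± 0.10 (adjusted p = 3.3e-06), 6430548M08Rik by 1.24 ± 0.13 (adjusted p = 7.28e-06) and Tuba1c, an α-tubulin, by 0.95 ± 0.14 (adjusted p = 0.000199). None overlapped between the 4 h and the 1 h mice, and Tuba1c changed by 0.42 on slide 2 alone. Named after their values were seen, the nuclear paraspeckle RNA Neat1 rose to 32.4, 29.1, 35.6 and 26.4 at 4 h, against 16.6, 16.7, 17.1 and 16.4 at 1 h (log2 change 0.88 ± 0.13, adjusted p = 0.000199), with 0.54 under slide as a block, and the nucleotide hydrolase Nudt18 rose by 0.81 ± 0.12 (adjusted p = 0.000393).

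**Figure D4:**
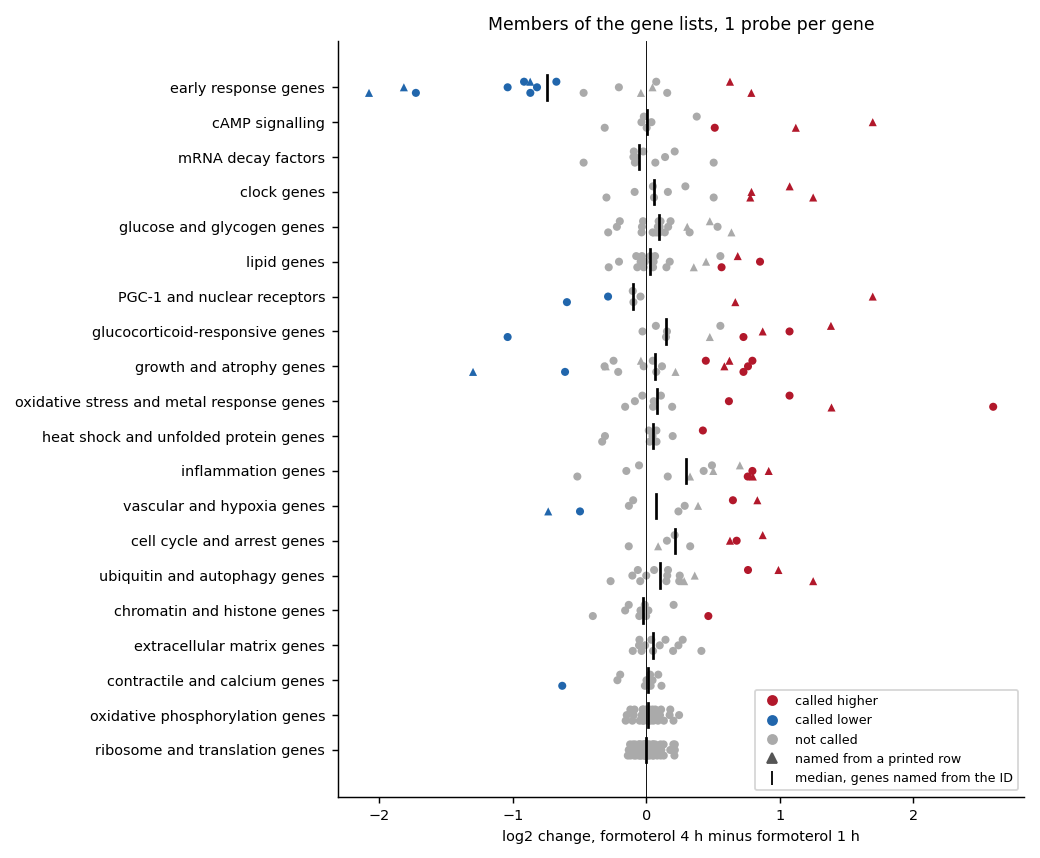
Log2 change of formoterol 4 h over formoterol 1 h (horizontal axis) for each measured member of 20 gene lists, 1 probe per gene, with members named from the ID as circles, table-named members as triangles, red for called higher, blue for called lower, grey for not called, and a bar at the median of the circles. Early response genes spread to the left with a median of -0.745, and the 60 ribosome and 35 oxidative phosphorylation genes have medians of -0.001 and 0.01.

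No call was made in most of the core machinery of the cell. Of 60 ribosome and translation genes, 35 oxidative phosphorylation genes, 13 extracellular matrix genes and 10 mRNA decay factors named from the ID, limma called none, with medians of -0.001, 0.01, 0.05 and -0.05. Rpl41 stood at 36.1 to 37.5 at 4 h and 34.1 to 37.9 at 1 h, and Rps20 at 28.1 to 33.3 at 4 h and 29.3 to 33.3 at 1 h. In other lists, single probes were called: Xbp1, a factor of the unfolded protein response, rose by 0.42 (adjusted p = 0.0134, but 0.0504 without formoterol 1 h replicate 4), H3f3b, histone H3.3, by 0.47 (adjusted p = 0.0412, but not without any 1 of 9 arrays, with 0.147 as the highest when replicate 1 at 4 h was omitted), and the dimmer of 2 probes for Ube2g1, a ubiquitin-conjugating enzyme, fell by 0.38 (adjusted p = 0.0227, but not without any 1 of 5 arrays, with a highest of 0.0836 without formoterol 4 h replicate 2). The brighter Ube2g1 probe, which stands for the gene in the list counts, gave -0.27 (adjusted p = 0.0808) and was not called. Of 8 glucocorticoid-responsive genes named from the ID, Mt1 and Foxo1 rose and Errfi1 fell; of 5 cell cycle and arrest genes 1 rose, Ciapin1, a cytosolic iron-sulphur assembly factor (log2 change 0.68, adjusted p = 9.04e-05); and of 10 contractile and calcium genes only Synpo2l was called, as a fall. Over all tested probes 3.33% rose and 2.12% fell, and Foxo1 was tested only because of its level at 4 h after formoterol. The 4 fibroblast markers tested, Dcn, Col1a1, Col3a1 and Col1a2, were not called, with a summed ratio of 32.6 to 36.8 at 4 h and 27.1 to 34.8 at 1 h after formoterol, against 41.1 to 60.7 at 4 h and 39.4 to 48.2 at 1 h after saline. Globins, from blood, were not called between the formoterol times (Hba-a1 log2 change 0.20, adjusted p = 0.864), with a summed ratio of 47 to 80.8 at 4 h and 42.4 to 76.2 at 1 h, against 11.2 to 37.5 at 4 h and 26.6 to 73.2 at 1 h after saline.

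**Figure D5:**
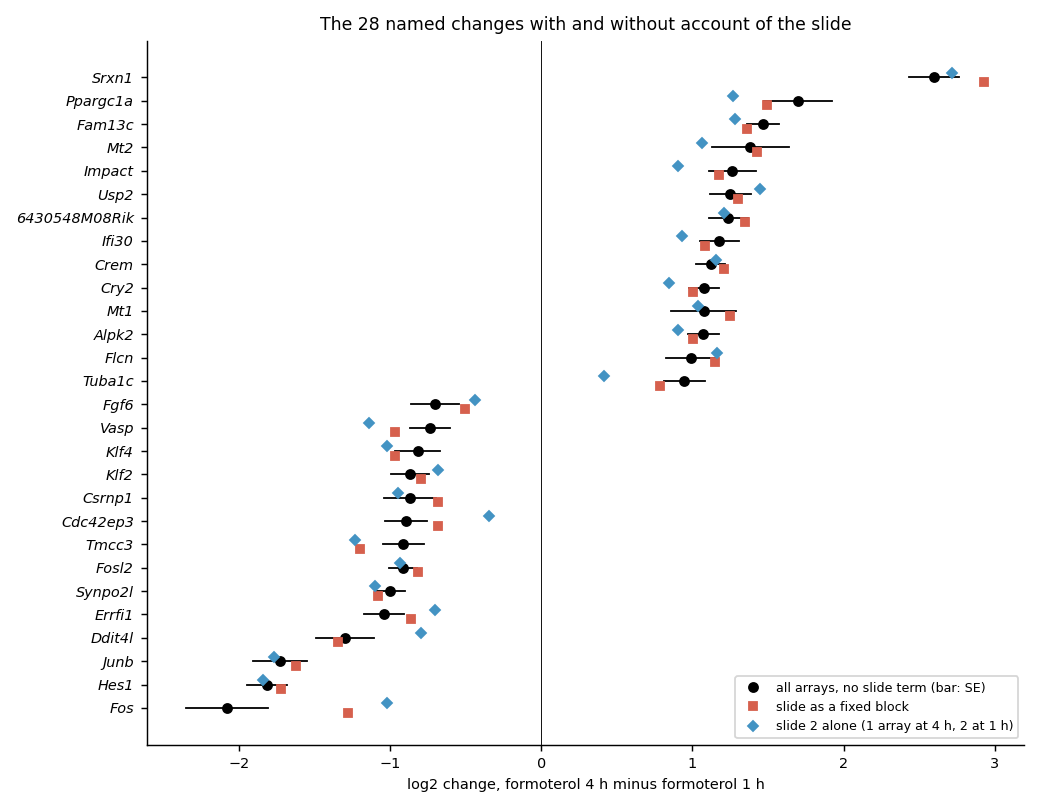
Log2 change of formoterol 4 h over formoterol 1 h (horizontal axis) for the 28 named genes with the largest rises and falls: black circles with a bar of 1 SE for all arrays, squares with slide as a fixed block, diamonds for slide 2 alone with 1 array at 4 h and 2 at 1 h. All keep their sign; Fos (-2.08, -1.28 and -1.02) and Cdc42ep3 (-0.90, -0.69 and -0.35) move most among the falls, and Tuba1c (0.95, 0.79 and 0.42) among the rises.

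Further calls were lost when slide was taken as a block or when slides were left out. Leaving out slides also leaves fewer arrays, and the part of each was not tested. Without slide 2, time and slide coincided fully, with slide 1 holding all 4 h arrays and slide 3 all 1 h arrays. Without slide 2, with 3 arrays at 4 h and 2 at 1 h, the adjusted p was 0.0708 for Nfil3, 0.358 for Dbp, 0.0697 for Egln3, 0.0705 for Foxo1, 0.164 for Osgin1, 0.0677 for Atf3, 0.0708 and 0.127 for the 2 Nrp1 probes, 0.0524 for Xbp1, 0.0616 for H3f3b, 0.133 for Noct, 0.239 for Nr4a2, 0.204 for Plin4, 0.106 for Thra and 0.38 for the second Klf4 probe. With slide as a block it was 0.29 for Xbp1, 0.679 for H3f3b, 0.615 for Thra, 0.139 for Ube2g1, 0.0654 for Lgals3, 0.532 for Adamts9, 0.0841 for Tgif1 and 0.371 for the second Klf4 probe. On slide 2 alone, where the single 4 h array is assumed to vary like the other groups, Plk3 changed by 0.25 (adjusted p = 0.425), Tgif1 by 0.30 (0.279) and the second Stat3 probe by 0.40 (0.119). In the same setting the adjusted p was 0.116 for Bmpr1a, 0.098 for Mt2, 0.0678 for Nudt18, 0.0705 for the second Nrp1 probe, 0.0672 for Pdgfa, 0.212 for Cdc42ep3, 0.248 for Tuba1c, 0.117 for Ppard, 0.212 each for Xbp1 and H3f3b, 0.656 for Thra, 0.514 for Ube2g1, 0.248 for Lgals3, 0.94 for Adamts9 and 0.184 for Fgf6. All of these kept their sign under each setting.

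Most tested probes carry no gene name here, and some of the largest changes were among them. Probe scl50147.4_283-S read 3.46, 2.68, 3.19 and 3.06 at 4 h against 11.4, 12.6, 17.5 and 10.1 at 1 h after formoterol (log2 change -2.04 ± 0.16, adjusted p = 2.46e-07), and scl52114.2_187-S fell by 1.92 ± 0.23. Probes scl44527.2.272_210-S and scl23564.6_587-S rose by 1.76 ± 0.14 and 1.34 ± 0.14. Where a gene had more than 1 tested probe and at least 1 was called, all probes had the same sign in 21 of 21 genes, and all were called in 9.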

How the data were processed

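Muscle RNA of 16 mice (tibialis anterior, total RNA) was read on 16 Illumina Mouse-6 v1 BeadArrays, 4 in each of 4 groups named by their titles. The authors compiled bead intensity and a detection score (a fraction from 0 to 1) in BeadStudio 1.5.1.3, not normalized between arrays. They deposited a ratio, the intensity over the array's median of the probes kept, that is those scored 1 for detection by at least 4 of the 16 arrays. This was found again from the intensities, with a largest relative difference of 0.000512 for ratios of at least 1. The number of arrays limits the precision.

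Log2 of the deposited ratio was fitted by limma 3.58.1 in R 4.3.3 with a mean for each of the 4 groups, for 7596 probes, and p-values were adjusted over all of them by Benjamini-Hochberg (threshold 0.05). Contrasts were formoterol 4 h minus 1 h, saline 4 h minus 1 h and the difference of these time changes. A probe with no detection in a group has only a bound there, given as "at least", computed from the lowest detected signal of each array. Tested on simulated data for formoterol 4 h against 1 h over 7596 probes, the fit recovered 98 of 100 changes of 1.5-fold and 99 of 100 of 2-fold, with 12 unchanged probes called. The simulated noise was independent between arrays and held no slide effect, so these numbers do not cover the confounding of slide with time.

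Genes were named from a gene number or accession in the probe ID through the RefSeq gene table (2591 probes, 2388 genes, 34.1% of those tested), or else from the 1 probe that has the fold change (tolerance 0.0075) and adjusted p (tolerance 0.0011) printed for a gene by the study (59 probes); 4946 were unnamed. Of 116 printed entries 109 met exactly 1 probe, and 32 of 32 that could be named both ways agreed on the name. The genes described are the 14 largest falls and 14 largest rises without overlap, all measured early response, cAMP and clock genes, and up to 5 called members of each other list or, where none was called, up to 2 with the highest signal; Acvr1, Bmpr1a, Nrp1, Zyx, Neat1 and Nudt18 were chosen after their values were seen. In list counts the probe with the highest mean signal stands for a gene. The members and lists were chosen with earlier results of these data known. Alternatives covered normalization, background, low values, the filter, the test, slide, replicate number, threshold and leaving out each array. A few listed genes are not reported here.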

Additional observations from a re-analysis of the deposited data

Results flagged for a closer look

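The time change after formoterol differed from that after saline, by limma's test of the difference of the 2 changes, for 256 probes. The 28 genes with the largest falls and rises were chosen for a large formoterol change, which is part of this difference. The table-named ones had also been selected by the study for a drug response. How many of the 28 passed is therefore no separate evidence. Among the genes with the largest falls the difference, formoterol minus saline on the log2 scale, was -1.884 for Fos, -1.821 for Hes1, -1.518 for Junb, -1.328 for Ddit4l, -1.265 for Synpo2l, -1.199 for Errfi1, -1.175 for Klf2, -1.085 for Tmcc3, -1.049 for Vasp, -1.028 for Cdc42ep3, -0.931 for Csrnp1, -0.845 for Klf4 and -0.833 for Fosl2. Among the largest rises it was 2.663 for Srxn1, 2.015 for Mt1, 1.916 for Mt2, 1.777 for Ppargc1a, 1.421 for Fam13c, 1.375 for Usp2, 1.35 for 6430548M08Rik, 1.306 for Ifi30, 1.281 for Alpk2, 1.2 for Impact, 1.178 for Tuba1c, 1.154 for Cry2, 1.109 for Flcn and 1.088 for Crem. Fgf6 was the only 1 of the 28 whose difference did not pass the test (adjusted p = 0.108). Outside the 28, it did not pass for Dbp (0.605), H3f3b (0.524), the called Ube2g1 probe (0.485), Adamts9 (0.419), Nr4a2 (0.294) and Tgif1 (0.292). Nor did it for Thra (0.281), Plk3 (0.254), Osgin1 (0.118), Zyx (0.108), Atf3 (0.0715), Neat1 (0.063) and the second Klf4 probe (0.567). The other named genes called and described above passed it.

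Single mice stood apart from the other 3 of their group by Dixon's criterion in 14 of 204 groups looked at, where chance gives about 1 in 20. At 1 h after formoterol, replicate 4 stood apart for Cebpb (ratio 5.95), Flcn (4.25) and Noct (3.49). At the same time replicate 1 did so for Pecam1 (1.28), Stat3 (1.86) and Ube2g1 (2.63), replicate 2 for Rpl41 (34.1) and replicate 3 for Prkar2a (1.15) and Rps20 (33.3). At 4 h after formoterol, replicate 1 stood apart for Klf6 (2.33) and Nrp1 (2.63), replicate 2 for Gnas (2.59) and Rhob (3.12), and replicate 4 for S100a8 (1.43).

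With no filter, 12 of the 38524 probes outside the tested set were called between 4 h and 1 h after formoterol, 7 higher and 5 lower.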

How the results depend on the processing

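None of the 64 named called probes changed sign under any alternative run, though these runs reuse the arrays on which the probes were called. Against 253 higher, 161 lower and 256 probes for the difference of time changes, leaving out the filter gave 139, 60 and 118, slide 2 alone 142, 99 and 164, and an adjusted p under 0.01 gave 143, 76 and 114. Slide as a fixed block gave 128 higher and 57 lower, the methods' t-test (which has no difference of time changes) 49 and 29, and omitting slide 2 gave 99 lower and 151 for the difference. Leaving out each array in turn gave 186 to 315 higher, 102 to 196 lower and 185 to 307 for the difference. The 7 calls after saline became 4 with quantile normalization, 0 with normexp, 11 with a floor, 11 with no filter, 1 with each treatment fitted alone, 1 with the t-test, 2 with trend and robust, 0 with slide as a fixed and 3 as a random block, 21 on slide 2 alone, 227 without slide 2, 27 with the replicate block and 0 at 0.01, and ran from 0 to 84 without single arrays (84 without saline 4 h replicate 4); the cause was not tested. Of 64 named probes called, 43 stayed called with slide as a fixed block, 15 by the t-test, 46 without slide 2 and 12 under every alternative. The replicate block gave 247 higher, 148 lower and 269 for the difference, but the numbers do not pair the mice: deviations of same-numbered formoterol mice correlated at 0.225, -0.015, 0.171 and 0.249. Dim probes, near the undetected level, limit what can be read.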
